A study of Schizosaccharomyces pombe with 3 samples.

Results

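The fission yeast genes fbp1 and inv1 were described with the 3 kb before and the 1 kb after each, as 2 of the 5113 protein-coding genes of the reference assembly ASM294v3. They were chosen by name, not by their values, though with earlier results of these data known. fbp1 (SPBC1198.14C, chrII:197660-199369, minus strand) encodes fructose-1,6-bisphosphatase, an enzyme of gluconeogenesis. inv1 (SPCC191.11, chrIII:1723434-1726164, plus strand) encodes the secreted invertase that splits sucrose outside the cell. Both transcripts are annotated as 1 exon. The 3 chromatin immunoprecipitation sequencing libraries came from strain 972 h- in log phase in YEA medium with 2% glucose. The bead control was chromatin of untagged cells on beads with no antibody. For the Pol II library, antibody 4H8, which binds the repeats of the polymerase's C-terminal domain, was used on untagged cells with Protein G beads. For the Med7 library, cells with a TAP tag on Med7, a subunit of the Mediator complex, were used with IgG beads. Both the tag and the IgG beads are absent from the control, so what they bind cannot be told apart from Mediator. Each kind of chromatin has 1 library, so no difference has a replicate check and no p-value is given.

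Both genes are known as glucose-repressed. In glucose, the receptor Git3 and its G protein raise cAMP, and protein kinase A holds back the activator Rst2, while the zinc-finger repressor Scr1 and the Tup11, Tup12 and Ssn6 corepressors act on the promoters. When glucose runs out, the CREB-type pair Atf1 and Pcr1, Rst2 and the CCAAT-binding Php complex turn fbp1 on, and long non-coding RNAs start in steps upstream of it. All 3 libraries came from cells in glucose, so the label was not tested by a change of carbon source here.

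The letters of these factors' known elements were looked up in the 3 kb before each transcript start, on both strands. The CRE core of Atf1 and Pcr1 was searched as TGACGT, the STREP element of Rst2 as CCCCTC, the CCAAT box as CCAAT and a TATA element as TATAAA. fbp1 had 4 CRE cores, 2 of which overlap each other, and inv1 had 1, beside 38.9% of 5112 genes with at least 1. A STREP stood 1 time before fbp1 and 0 times before inv1, beside 24.3% of genes. In both genes 1 CRE core lay close to a CCAAT box, with 5 bases between them before fbp1 and 7 before inv1. A CRE core within 20 bases of a CCAAT box was found before 4.01% of genes, a feature picked after the letters were seen. Capitals below mark these motifs, read along the gene's strand.
fbp1, 975 to 911 bp upstream (chrII:200280-200344): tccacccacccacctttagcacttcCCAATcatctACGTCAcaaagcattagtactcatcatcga
inv1, 565 to 501 bp upstream (chrIII:1722869-1722933): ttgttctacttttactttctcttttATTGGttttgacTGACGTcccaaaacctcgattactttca
fbp1, 334 to 275 bp upstream (chrII:199644-199703): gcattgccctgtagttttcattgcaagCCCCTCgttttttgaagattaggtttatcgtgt
fbp1, last 100 bases before the start (chrII:199370-199469): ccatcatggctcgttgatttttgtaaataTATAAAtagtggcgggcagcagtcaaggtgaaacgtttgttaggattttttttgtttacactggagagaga
inv1, last 100 bases before the start (chrIII:1723334-1723433): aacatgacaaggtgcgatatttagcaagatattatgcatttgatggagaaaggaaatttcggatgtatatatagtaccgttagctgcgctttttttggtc
A TATA element stood 71 to 66 bp before the fbp1 start, and 18.8% of genes have one in their last 100 bases. The letters TATAAA are not in the last 100 bases before inv1. Only these exact letters were searched, so TATA-like letters such as the tatatata printed in that inv1 stretch were not counted or marked. A match of letters is no evidence of binding.

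The read lists of the bead control, Pol II and Med7 held 678947, 1829877 and 917064 reads. Counts were scaled to the nuclear reads outside the ribosomal DNA (630819, 1687049 and 696093) and are given as RPM, the number per 1000000 of these. A fold is the RPM of a library over that of the control in the same window, with an exact conditional binomial 95% interval in parentheses that covers counting error only. A window is called high where the fold is at least 2 and its interval lies above 1, and low where the fold is at most 0.5 and its interval lies under 1. The median log2 fold of gene bodies was -0.45 for Pol II and -0.11 for Med7. Scaling by the median 1 kb bin raised the Pol II median by 0.50, and turned 6.74% high and 11.6% low gene bodies into 11.7% and 1.23%.

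Pol II was sparse on fbp1 in glucose, below the typical gene, while inv1 stood slightly above it. The fbp1 gene body, from annotated transcript start to end, held 87 control reads, 126 Pol II reads and 74 Med7 reads. Per kb of gene the levels were 80.7, 43.7 and 62.2 RPM, beside medians of 86.0, 61.2 and 79.6 over measured genes. At fbp1, as in these medians, Pol II was the lowest of the 3 libraries when scaled to nuclear reads. The Pol II fold was 0.542 (0.409 to 0.720), with 17.7% of 4967 measured genes lower. It was not low by the rule, which 11.6% of genes met.

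The inv1 gene body held 130 control reads, 306 Pol II reads and 133 Med7 reads. Its levels were 75.5, 66.4 and 70.0 RPM per kb, close to each other. The Pol II fold was 0.880 (0.715 to 1.09), with 67.4% of genes lower, and it was neither high nor low, where 6.74% of genes were high. The inv1 fold was 1.63 times that of fbp1 (1.14 to 2.32). Over the coding sequence only, the ratio was 1.28 with an interval that includes 1 (0.819 to 1.98). For Med7 the gene bodies were at 0.771-fold (0.558 to 1.06) for fbp1 and 0.927-fold (0.723 to 1.19) for inv1, neither high, like 0.524% of 4961 genes, nor low, like 0.685%. In the median-bin scaling the Pol II fold was 0.768 for fbp1 and 1.25 for inv1, at the same ranks among genes. The Med7 folds were then 0.776 and 0.933, so at fbp1 the folds of Pol II and Med7 were close.

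The enzyme of the opposite reaction, phosphofructokinase from pfk1, gave the contrast for fbp1. Its gene body held 227 control reads, 2578 Pol II reads and 135 Med7 reads, and its Pol II fold of 4.25 (3.71 to 4.89) was 7.84 times that of fbp1 (5.70 to 10.7). For inv1 the contrast was ght5, the high-affinity hexose transporter gene, with 143 control reads, 4720 Pol II reads and 106 Med7 reads. Its Pol II fold was 12.3 (10.4 to 14.7), or 14 times that of inv1 (10.7 to 18.4). Of its positions 69.8% start a unique sequence of 45 bases, under the 90% asked of measured genes, so it is not counted among them. By Pol II level per kb, 98.9% of measured genes lay below pfk1 and 99.8% below ght5. Both ratios thus set the members against genes near the top, not against a typical gene.

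**Figure D1:**
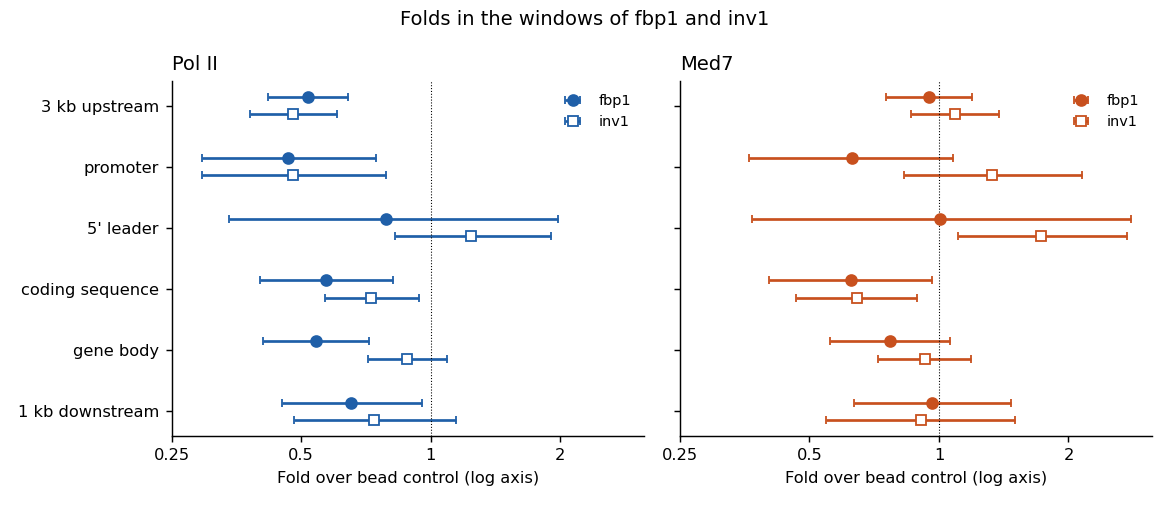
Fold over the bead control (log axis) in 6 windows of fbp1 (filled circles) and inv1 (open squares), for Pol II on the left and Med7 on the right, 1 library each; bars are 95% counting intervals. For Pol II the promoter folds of both genes lie under 0.5, and for Med7 the inv1 leader at 1.73 and the inv1 promoter at 1.33 lie to the right of the fbp1 promoter at 0.629.

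In the promoter window, from 500 bp before to 100 bp after the transcript start, both genes had little Pol II and they parted on Med7. The fbp1 window held 36 control reads, 45 Pol II reads and 25 Med7 reads. The inv1 window held 32, 41 and 47. For Pol II the folds were thus nearly equal, 0.467 (0.295 to 0.746) at fbp1 and 0.479 (0.294 to 0.786) at inv1, with a ratio of 1.02 (0.516 to 2.04). Both were low, as were 13.9% of 4944 promoters, and 4.29% were high. The low calls ended under median-bin scaling, at 0.663 (0.418 to 1.06) for fbp1 and 0.680 (0.418 to 1.12) for inv1. That of fbp1 also ended with duplicates collapsed, at 0.542, over the library mean, at 0.535, in the narrower window, at 0.506, and with the window on the start codon, at 0.608. That of inv1 ended with reads left unshifted, at 0.542, and with the window on the start codon the fold was 1.30 (0.826 to 2.12).

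For Med7 the fbp1 promoter was at 0.629-fold (0.362 to 1.08), and 1.09% of 4943 measured promoters were lower. The inv1 promoter was at 1.33-fold (0.832 to 2.16), near the middle, with 47.1% lower. Neither was called, where 14% of promoters were high and 0.243% low. The inv1 fold was 2.12 times that of fbp1 (1.02 to 4.42). With duplicate reads collapsed the ratio was 1.77 (0.808 to 3.87), and in a window from 250 bp before to 50 bp after the start it was 2.80 (0.94 to 8.49), both with intervals that include 1. Set against the library mean in place of the control, the folds were 0.720 (0.466 to 1.06) and 1.35 (0.995 to 1.80).

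**Figure D2:**
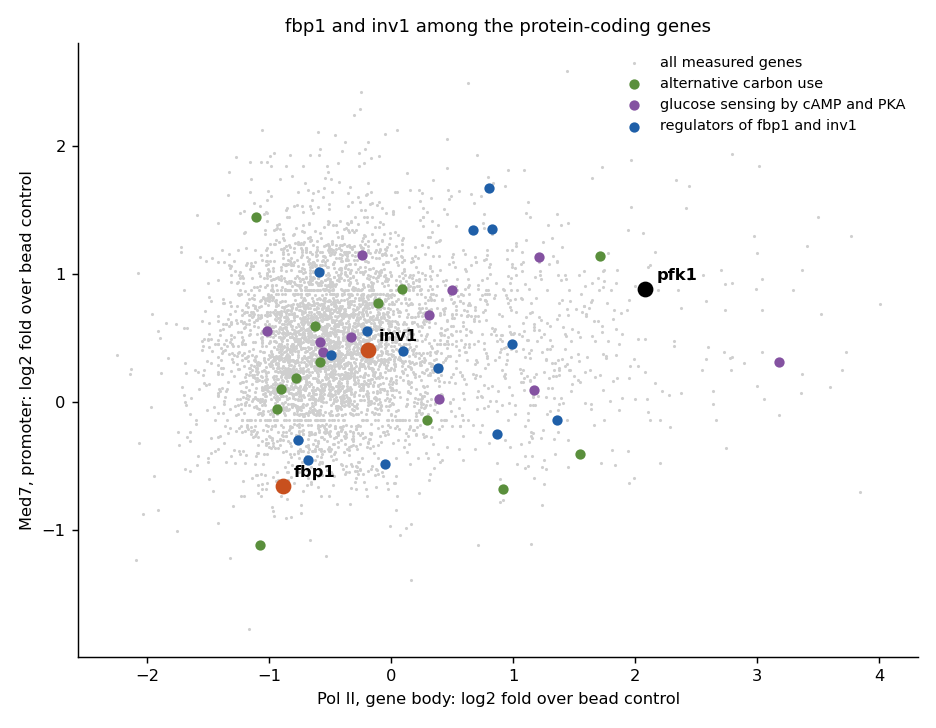
Each point is 1 of the measured protein-coding genes, with the log2 Pol II fold of the gene body on the x axis and the log2 Med7 fold of the promoter on the y axis, both over the bead control from 1 library. fbp1 sits at the lower left edge of the cloud, inv1 near its middle and pfk1 to the right; green, violet and blue points are the genes of alternative carbon use, of glucose sensing and of the regulators.

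Upstream of fbp1 the Med7 reads were not spread evenly. In 6 windows of 500 bp from 3000 bp upstream to the start, the Med7 library held 16, 30, 38, 31, 23 and 19 reads, and the control 26, 24, 17, 21, 30 and 32. Med7 was thus highest between 2000 and 1500 bp upstream, where the control was lowest. The Pol II library held 33, 26, 44, 28, 42 and 35 reads, with its highest number in the same window.

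Between 2000 and 1500 bp upstream of fbp1 the Med7 fold was 2.03 (1.12 to 3.83) and the Pol II fold 0.968 (0.542 to 1.81). This was the 1 high window for Med7 of the 12 upstream windows of both genes, where 7.83% of all such windows were high and 4.5% low. For Pol II, 6 of the 12 were low and 0 high, where 20.2% of all were low and 5.34% high. Median-bin scaling, which raised every Pol II fold alike and ended the low calls of both promoters, was not applied to these windows. At the same distance from the other genes, of 4944 windows, 4.71% were high and 5.68% low for Med7, and 5.28% and 20.5% for Pol II. There 95.3% were lower than fbp1 for Med7 and 73.1% for Pol II. In the last 500 bp before the start the Med7 fold of fbp1 was 0.538 (0.288 to 0.979), with 0.669% of genes lower, and the median gene was at 1.42. The far window over the near one gave a ratio of 3.76 (1.57 to 9.13) for Med7 and 2.37 (1.07 to 5.31) for Pol II. The 2 windows were picked after their values were seen.

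Base composition moved with these values. The far window of fbp1 was 23.4% G and C, against 40.0% in the near one. Over 472 upstream windows of genes within 2.5 points of that far window, the median Med7 fold was 1.59, 22.9% were high and 77.5% were lower than fbp1. Over 7969 windows with the G and C content of the near one, the median was 0.826 and 11.6% were lower than fbp1. Both sets pool all distances up to 3 kb upstream. They were thus not matched on distance from the start, unlike the shares at the same distance given before. The part of base composition in the fbp1 values was not tested. The high call in the far window also depended on the control, with 1.32-fold (0.931 to 1.81) over the library mean. Its lower bound fell under 1 too when all listed reads set the scale, at 1.65-fold (0.912 to 3.13), or when the window lay 100 bp farther out, at 1.57-fold (0.869 to 2.93). A common shift of 100 bp gave 1.87-fold (1.02 to 3.55), under 2. The call held with the window 100 bp nearer the gene, at 2.51-fold (1.41 to 4.65), and with reads unshifted, at 2.32-fold (1.28 to 4.43). It also held with duplicates collapsed, at 2.26-fold (1.21 to 4.45), and under median-bin scaling, at 2.04-fold (1.12 to 3.85).

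**Figure D3:**
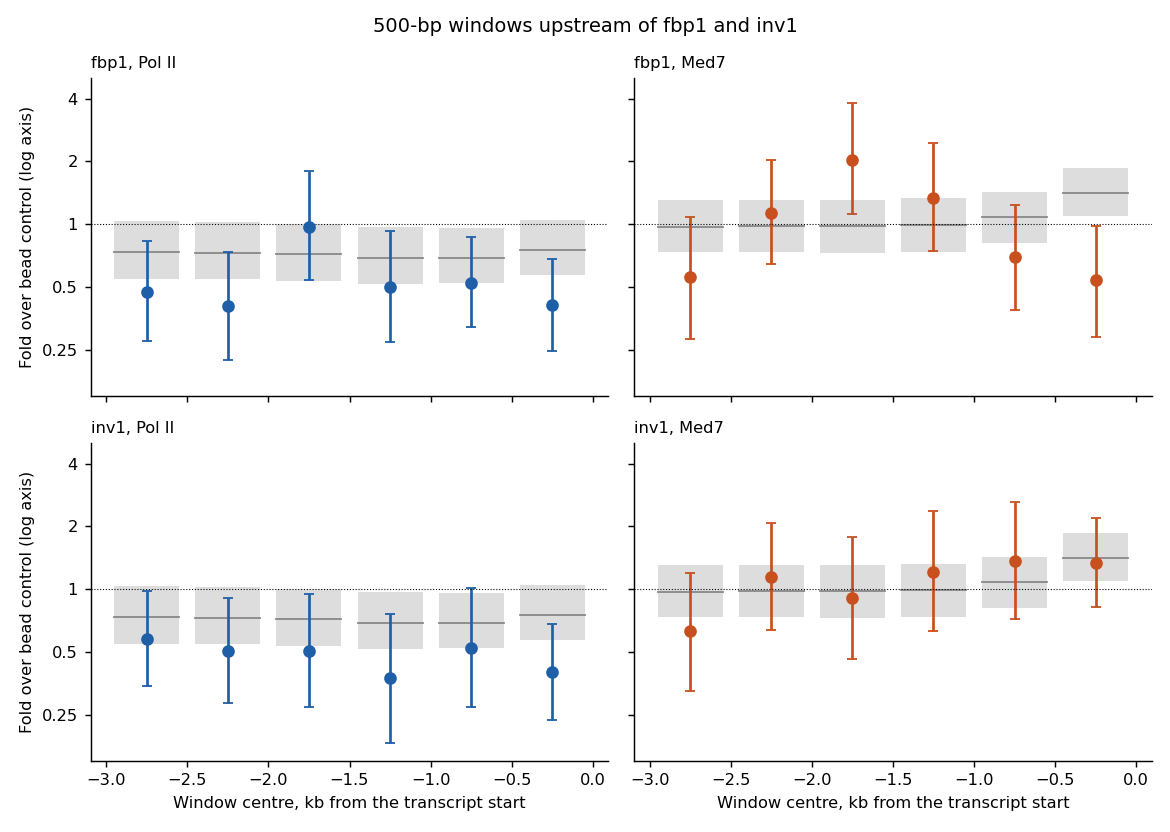
Fold over the bead control (log axis) in 500-bp windows from 3 kb upstream to the transcript start of fbp1 (top) and inv1 (bottom), for Pol II (left) and Med7 (right); bars are 95% counting intervals, grey boxes the middle 50% of all measured genes and grey lines their median. Med7 upstream of fbp1 peaks at 2.03 and falls to 0.538 before the start, where the median gene is at 1.42.

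Within the far window the Med7 reads lay towards the gene. In the 100-bp windows that start 2000, 1900, 1800, 1700 and 1600 bp upstream of fbp1, the Med7 library held 3, 1, 16, 7 and 11 reads, and 12 more lay from 1500 to 1401 bp upstream. The control held 5, 2, 3, 3, 4 and 5. The 16 reads from 1800 to 1701 bp upstream gave 4.83-fold (1.38 to 25.9), the highest measured Med7 fold of the locus and its 1 high window of 30 measured, where 4.54% of 100-bp windows of the genome were high. The CRE core near the CCAAT box lies at 940 to 935 bp upstream, in a 100-bp window with 1 control read, 4 Pol II reads and 5 Med7 reads from 1000 to 901 bp. The STREP, at 307 to 302 bp, lay in a window with 8 control reads, 7 Pol II reads and 3 Med7 reads.

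**Figure D4:**
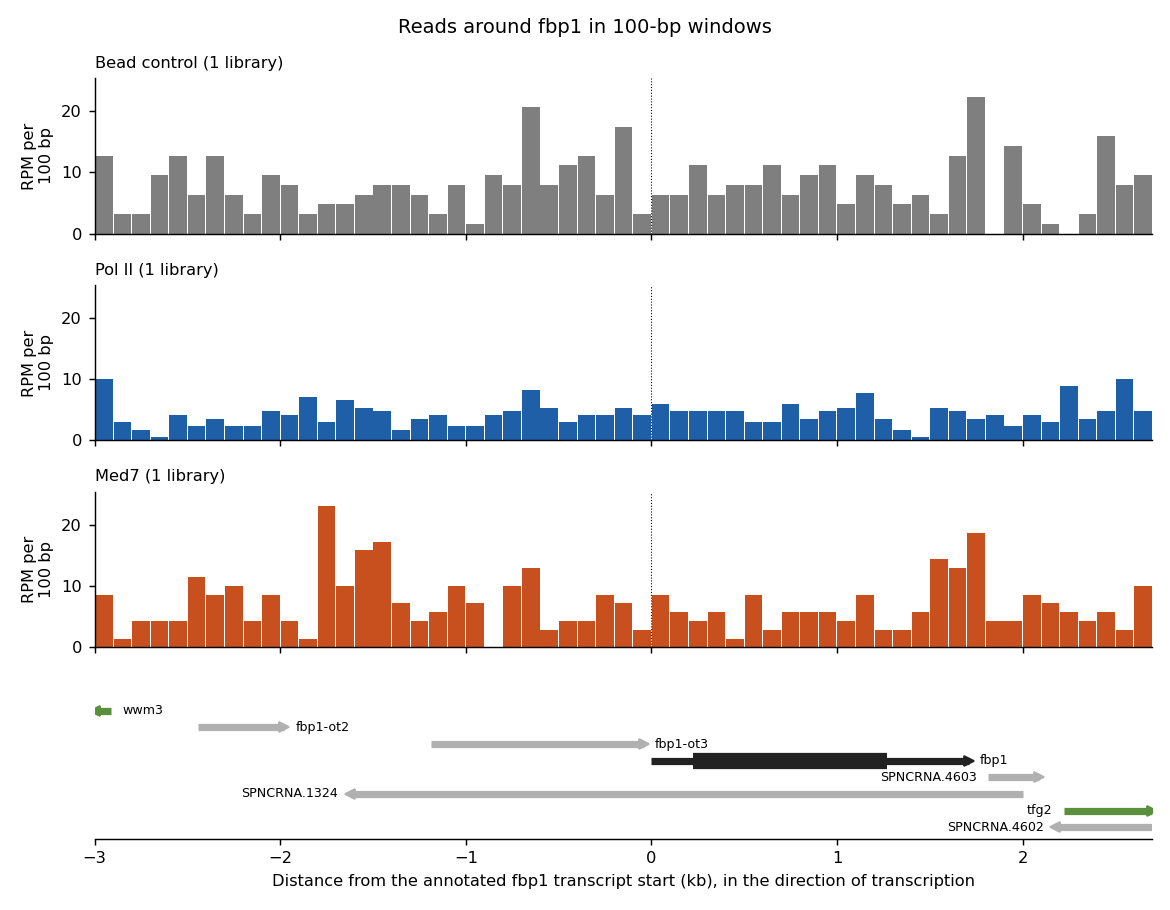
RPM per 100-bp window (bars from 0, same scale) in the bead control, Pol II and Med7 libraries from 3 kb before to 1 kb after fbp1, against the distance from its transcript start; arrows are annotated transcripts, with the fbp1 coding sequence as a thick bar. The highest Med7 window, with 16 reads, lies 1800 to 1701 bp upstream, between the non-coding RNAs fbp1-ot2 and fbp1-ot3.

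Most of the fbp1 locus is annotated as transcribed in one sense or the other. fbp1-ot2 and fbp1-ot3 are named in the annotation as upstream regulatory long non-coding RNAs of fbp1 and run in its direction. fbp1-ot2 starts 2443 bp and ends 1979 bp upstream, and fbp1-ot3 runs from 1190 to 40 bp upstream. fbp1-ot2 held 25 control, 23 Pol II and 28 Med7 reads, and its Pol II fold was 0.344 (0.187 to 0.632). fbp1-ot3 held 67, 82 and 53, with a Pol II fold of 0.458 (0.327 to 0.642). Pol II was therefore below the control in both RNAs, as in fbp1 itself and in the median gene body, at 0.733-fold. Both RNAs were low by the rule, as were 11.6% of protein-coding gene bodies and 20.2% of 500-bp windows up to 3 kb upstream of genes. Under median-bin scaling, not applied to the RNAs, fbp1 was at 0.768 (0.580 to 1.02).

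The antisense RNA SPNCRNA.1324 covers all 1710 bp of fbp1 and ends 1626 bp upstream of its start, so it also covers fbp1-ot3. Its reads cannot be told apart from those of fbp1 or fbp1-ot3 in libraries without strand of transcription. SPNCRNA.1324 held 195, 261 and 181 reads, with a Pol II fold of 0.50 (0.414 to 0.606). Next to it the short RNA SPNCRNA.4603, after the fbp1 end, was at 0.476 (0.201 to 1.16) from 11 control, 14 Pol II and 12 Med7 reads. The downstream neighbour tfg2, for a subunit of the initiation factor TFIIF, was at 0.539 (0.441 to 0.659), and SPNCRNA.4602 on its other strand at 0.935 (0.595 to 1.51). On the upstream side, wwm3 points away from fbp1 and was high, at 2.15 (1.64 to 2.87) from 61 control, 351 Pol II and 67 Med7 reads. Its first 89 bp fall in the outermost window upstream of fbp1, from 3000 to 2901 bp, which with 17 Pol II reads shared the highest count of the locus with a window inside tfg2.

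Over the whole fbp1 locus, 40 of 57 windows of 100 bp passed the minimum of 10 reads for Pol II, with a median of 5 control and 7 Pol II reads. Of these, 8 were low, where 9.86% of the genome's windows were low, and 1 was high, where 6.88% were. Low calls of 100-bp windows were not recounted under median-bin scaling. The high window, 2200 to 2299 bp past the start and across the start of tfg2, had 0 control reads, 15 Pol II reads and 4 Med7 reads, so no fold is given. The highest Pol II fold with control reads was 2.24 (0.499 to 20.6), 1900 to 1801 bp upstream. The lowest measured one, 0.160 (0.0505 to 0.444), lay at 1700 to 1799 bp past the start, across the transcript end. For Med7, 0 of 30 windows were low, where 4.47% of the genome's were, and the lowest measured fold was 0.302 (0.0526 to 1.21) at 1900 to 1999 bp.

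Along inv1 the leader and the coding sequence differed for Med7, and less firmly for Pol II. The leader, the 872 bp between transcript start and start codon, is longer than 97.8% of the 4512 annotated leaders, whose median is 99 bp. It held 32 control reads, 106 Pol II reads and 61 Med7 reads. The 1746 bp of coding sequence held 97, 189 and 69. Per kb, the leader thus had fewer control reads and more Pol II and Med7 reads than the coding sequence.

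For Med7 the leader was at 1.73-fold (1.11 to 2.74) and the coding sequence at 0.645-fold (0.466 to 0.887), a ratio of 2.68 (1.53 to 4.71). Over 291 genes with a leader of at least 500 bp, the median ratio was 1.51, and 91.4% were lower than inv1. For Pol II the leader was at 1.24-fold (0.827 to 1.90) and the coding sequence at 0.729-fold (0.567 to 0.941), with a ratio of 1.70 (1.05 to 2.80). Of the same genes 94.5% had a lower ratio, and their median was 0.983. With the control left out, the ratios were 1.77 for Med7 and 1.12 for Pol II. The Pol II interval included 1 with reads left unshifted, at 1.49 (0.926 to 2.43), and with a coding stretch as long as the leader, at 1.46 (0.844 to 2.55).

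The leader was 29.8% G and C and the coding sequence 42.6%. Over 7182 upstream windows within 2.5 points of the leader's content, the median Med7 fold was 1.38, and over 4294 with the content of the coding sequence 0.738. For Pol II both medians were 0.748. Both sets pool upstream windows at all distances up to 3 kb and were not matched on position in a gene. The part of base composition in the inv1 ratios was not tested. fbp1 has a leader of 227 bp with 9 control, 19 Pol II and 10 Med7 reads, too few for its ratio to the coding sequence to be set apart from 1, at 1.38 for Pol II (0.547 to 3.73) and 1.61 for Med7 (0.528 to 4.93).

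**Figure D5:**
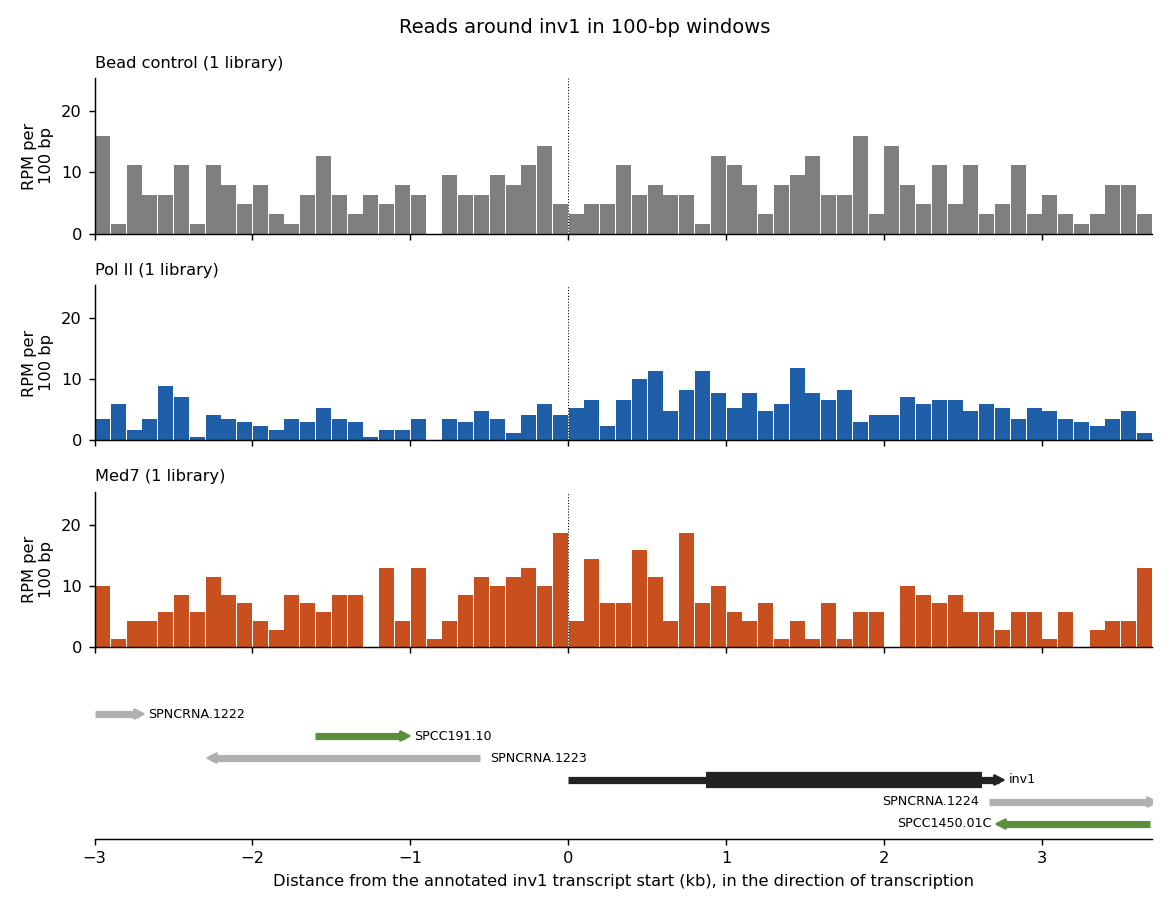
RPM per 100-bp window (bars from 0, same scale) in the bead control, Pol II and Med7 libraries from 3 kb before to 1 kb after inv1, against the distance from its transcript start; arrows are annotated transcripts, with the inv1 coding sequence as a thick bar. Med7 has its most reads, 13, in the last 100 bp before the start and again at 700 to 799 bp in the leader, and Pol II its most, 20, at 1400 to 1499 bp.

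Upstream of inv1 neither library stood above the control over a long stretch. The 3 kb held 135 control reads, 173 Pol II reads and 162 Med7 reads. The Pol II fold there was 0.479 (0.380 to 0.605), low by the rule like 6.64% of 4913 genes, with 4.42% lower and 3.52% high. Median-bin scaling ended that call, at 0.680. The 3 kb upstream of fbp1 were at 0.519 (0.418 to 0.644), with 9.46% lower. For Med7 the folds were 1.09 (0.860 to 1.38) at inv1 and 0.949 (0.753 to 1.19) at fbp1, where 0.0814% of genes were high and 0% low. In the 6 windows of 500 bp before inv1, the Med7 library held 18, 29, 20, 24, 27 and 44 reads and the control 26, 23, 20, 18, 18 and 30. The Med7 fold of 1.33 (0.817 to 2.19) in the last 500 bp had 42.6% of genes lower, against 0.669% for fbp1.

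The highest single windows of inv1 rested on few control reads. The 100 bp just before the start, printed above, had 3 control, 7 Pol II and 13 Med7 reads, or 3.93-fold for Med7 (1.08 to 21.5). This was the 1 high Med7 window of 29 measured, and 0 were low, beside 4.54% and 4.47% in the genome. The highest measured fold, 4.08 (0.844 to 38.8), came from 9 Med7 and 2 control reads at 3600 to 3699 bp past the start, and the lowest measured one, 0.362 (0.0830 to 1.26), lay at 1800 to 1899 bp. For Pol II, 1 of 48 measured windows was high and 4 were low, beside 6.88% and 9.86% in the genome. The high one, at 800 to 899 bp and across the start codon, had 1 control and 19 Pol II reads, a ratio of 7.10 with an interval from 1.13 to 295. The lowest measured one was 0.160 (0.0267 to 0.702), from 2800 to 2701 bp upstream. The window with the CRE core and the CCAAT box, 600 to 501 bp upstream, held 4 control, 8 Pol II and 8 Med7 reads.

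Of the 5 annotated neighbours of inv1, 2 were low for Pol II, and these 2 overlap, so they share reads. Of protein-coding gene bodies, whose median was at 0.733, 11.6% were low. Of 500-bp windows up to 3 kb upstream of genes, 20.2% were low. Median-bin scaling, which raised every Pol II fold alike, was not applied to these neighbours. The uncharacterized gene SPCC191.10, in the same direction upstream, was at 0.421-fold (0.234 to 0.762), and SPNCRNA.1223 on the other strand over it at 0.452-fold (0.323 to 0.634). SPNCRNA.1222, farther out, was at 0.543-fold (0.375 to 0.791). Past the inv1 end, SPNCRNA.1224, which shares 67 bp with inv1, was at 0.786-fold (0.531 to 1.18), and the pseudogene SPCC1450.01C on its other strand at 0.678-fold (0.433 to 1.08). For Med7 these 5 ranged from 0.860 to 1.15. The 1 kb downstream had Pol II folds of 0.737 (0.481 to 1.15) at inv1 and 0.652 (0.450 to 0.955) at fbp1, where 6.1% of 4948 genes were high and 11.4% low. The Med7 folds there were 0.906 and 0.964, where 1.37% were high and 0.627% low.

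Over the 4 log2 folds of gene body and promoter in both libraries, the genes nearest to fbp1 of 4887 were SPAC23H3.11C, lcp1 and sly1, at Euclidean distances of 0.12, 0.19 and 0.27. Those nearest to inv1 were SPBC106.03, spd2 and ubp14, at 0.10, 0.10 and 0.11. inv1 ranked 1473rd from fbp1, at a distance of 1.30, and the median gene was 1.62 away. Seen from inv1, fbp1 ranked 3202nd of 4887, farther than the median gene, which was 1.09 away.

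Other genes listed for using carbon sources in place of glucose did not share 1 level of Pol II. The list includes the transporter genes ght3, ght4 and ght6, the last annotated for glucose and fructose. Of the 14 listed genes besides fbp1 and inv1, 13 were measured in the gene body. Among these, 2 were high, where 6.74% of genes were, and 2 low, where 11.6% were. The high ones were dak1, for dihydroxyacetone kinase, at 3.28-fold (2.74 to 3.97), and gut2, for glycerol-3-phosphate dehydrogenase, at 2.92-fold (2.49 to 3.45), both of glycerol use. The low ones were the second kinase gene dak2 at 0.474-fold (0.360 to 0.625) and the melibiase gene mel1 at 0.466-fold (0.332 to 0.656). The maltase gene mal1 was at 1.23-fold and the sucrose and maltose transporter gene sut1 at 1.07-fold, while agl1, for an alpha-glucosidase, was at 0.523-fold, close to fbp1. The galactose genes gal1, gal7 and gal10 lay from 0.536 to 0.650. The list's median log2 fold was -0.59, against -0.45 for all genes.

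At these 14 promoters Med7 was high at mel1, with 2.78-fold (1.52 to 5.36), and at dak1, with 2.24-fold (1.25 to 4.20), where 14% of promoters were high. It was low at dak2, with 0.453-fold (0.220 to 0.890). The glycerol dehydrogenase gene gld1, at 0.619-fold (0.369 to 1.03), was close to fbp1. The median was 0.25, against 0.45 for all promoters.

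The glucose-sensing pathway itself was measured in full. Of its 11 genes, 3 were high for Pol II, where 6.74% of all genes were, namely git3 for the receptor, at 2.32-fold (2.01 to 2.69), gpa2 for the G protein alpha subunit, at 2.25-fold (1.90 to 2.70), and the chaperone gene hsp90 at 9.05-fold (7.78 to 10.6). The low one was git7, at 0.496-fold (0.375 to 0.657), where 11.6% of genes were low. The adenylate cyclase gene cyr1 was at 0.796-fold, the kinase gene pka1 at 1.31-fold and its inhibitory subunit gene cgs1 at 1.42-fold. For Med7 the promoters of git3, at 2.22-fold (1.30 to 3.94), and git11, for the gamma subunit, at 2.27-fold (1.19 to 4.56), were high, as were 14% of all promoters. The median log2 folds were 0.31 for Pol II and 0.51 for Med7, against -0.45 and 0.45 for all genes.

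Among 15 regulators of fbp1 and inv1, the repressor and corepressor genes scr1 and ssn6 were high for Pol II, at 2.26-fold (1.94 to 2.64) and 2.57-fold (2.27 to 2.93), and 0 were low, where 6.74% of all genes were high and 11.6% low. The corepressor genes tup11 and tup12 lay lower, at 0.665-fold and 0.590-fold. The activator genes atf1 and pcr1 were at 1.74-fold and 1.78-fold and rst2 at 0.970-fold. The Php complex genes php2, php3 and php5 were at 1.07-fold, 0.626-fold and 1.83-fold. The list's median was 0.39, against -0.45 for all genes. For Med7, 4 of 14 measured promoters were high, where 14% of all were. They were those of pcr1 at 2.61-fold (1.45 to 4.93), tup11 at 2.05-fold (1.23 to 3.51), the RFX-type factor gene sak1 at 2.59-fold (1.38 to 5.15) and atf1 at 3.25-fold (1.87 to 5.94). The rst2 promoter was at 0.709-fold (0.361 to 1.37), and that of scr1, with 5 control and 14 Med7 reads, was under the minimum of 20. The median of 0.38 was near the 0.45 of all promoters.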

How the data were processed

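Per the file headers and columns, the authors deposited 1 row per aligned read, giving its chromosome, ends and strand. The columns hold positions, not a signal. The submitters' processing notes name Bowtie 0.12.7 without a step. Which build was used, and how multiple hits were handled, is not given in the sources used here. Of nuclear reads with 45 bases, 0 began at a repeated 45-base sequence of ASM294v3 (147, 306 and 151 with starts moved by 1 base), so starts were read as 1-based and coordinates as those of this assembly.

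Reads were counted at their 5' end moved by 79 (control), 76 (Pol II) or 69 bp (Med7), to the middle of the fragment, whose length was read at the highest strand cross-correlation, a weak signal in the control and Med7. Duplicates (12.9%, 17.0% and 16.4%) were kept. Gene windows needed 20 reads in the library and the control together, and 90% unique positions. Windows of 100 bp needed 10 reads in the library and the control together, and the same 90%. Log2 folds used 0.5 reads as pseudocount. Ratios of folds have exact conditional odds ratio intervals. Duplicates, scaling, shift, control and window borders were varied. The fold rule was tested on simulated data. Intervals cover counting error only, since each group has 1 library. PCR copies carry no molecular identifier, so kept duplicates count as separate reads and the intervals may be too narrow. Members and lists were chosen with earlier results of these data known. Genes were named as fbp1 and inv1, the genes in their windows, the 3 lists, pfk1 and ght5 as contrasts, and the 3 nearest genes of each. Sequences and annotation are RefSeq's for ASM294v3. The sequence of 1 window is not reported here. Tools were scipy 1.17.1, numpy 2.4.6, pandas 2.3.3 and matplotlib 3.10.9 under Python 3.11.15.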

Additional observations from a re-analysis of the deposited data

Results flagged for a closer look

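The Med7 library held 23.8% of its listed reads on the mitochondrial chromosome (exact 95% interval 23.7 to 23.9), against 6.84% in the bead control and 7.73% in the Pol II library. These reads enter no fold above except where all listed reads set the scale. Their part in the Med7 values was not tested beyond that scaling.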

How the results depend on the processing

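Of 108 alternative values of the 16 folds of fbp1 and inv1, 101 stayed within the main counting interval, and 6 crossed 1. Of these 6, only the inv1 Pol II promoter had been called, and it was at 1.30-fold when the window was set on the start codon, where it covers the leader. Scaling by the median 1 kb bin, which raised every Pol II fold alike, gave 0.768 and 1.25 in the gene bodies and 0.736 and 0.680 in the 3 kb upstream of fbp1 and inv1. Without the control the 1 kb downstream of inv1 was at 0.479-fold for Pol II, and over coding sequence only the inv1 body was at 0.645-fold for Med7. Counts of high 100-bp windows, 1 per gene and library, were fragile. A minimum of 20 reads left 0 for fbp1 in both libraries and 0 for inv1 in Med7, collapsed duplicates left 0 for inv1 in both, and windows of 200 bp left 0 for fbp1 in Pol II and for inv1 in both and gave 2 for fbp1 in Med7. In the lists, collapsed duplicates gave 1 low gene body of carbon use and 0 of glucose sensing for Pol II, and 4 high Med7 promoters of glucose sensing. Median-bin scaling gave 0 low gene bodies in both and 7 high ones among the regulators. Scaling by all listed reads lowered the Med7 medians by 0.29 on the log2 scale and turned 14% high and 0.243% low promoters into 4.98% and 0.870%. The cause was not tested for the others. No paired analysis was possible because each group has 1 library. With about 5 control reads per 100 bp, single windows cannot separate changes of less than several fold.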
